A study of Mus musculus with 12 samples.

Results

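Wildtype mouse liver was compared 36 h after surgical removal of 2/3 of the organ with unoperated wildtype liver. The comparison rests on 4 of the 12 arrays of the series, taken by their titles. Of these, 2 arrays came from liver at 36 h and 2 from liver at 0 h. The 36 h animals were adult C57BL/6 mice after 2/3 hepatectomy, and the 0 h animals were age-matched adult C57BL/6 mice that had none. Each array carried liver RNA pooled from 3 animals, so a group held 2 pools and n counts pools. No group was labelled as sham-operated, so loss of liver tissue, surgery and the hour of harvest cannot be told apart. The labels name neither the sex of the animals nor the hour of harvest. The other 8 arrays came from wildtype liver at 24 h and from Socs2-null liver, on a C57BL/6 background, at 0, 24 and 36 h. They shared the estimate of the spread and served 2 later comparisons.

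After partial hepatectomy the hepatocytes that remain, normally at rest, re-enter the cell cycle and restore the mass of the organ within days. Cytokines released by the resident macrophages (Kupffer cells) prime the hepatocytes and switch on acute phase genes through STAT3. Growth factors such as HGF and the ligands of the EGF receptor then carry them through G1 into DNA synthesis. The remnant meanwhile takes up the lipid, ammonia, bile acids and foreign compounds that the whole organ handled before, and it stores fat for a time.

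Values were processed fluorescence intensities on a linear scale, and changes were taken as log2(intensity + 16) at 36 h minus 0 h, with standard errors (±) and Benjamini-Hochberg adjusted p from limma over 17097 genes. A gene was called when its adjusted p was under 0.05. Some checks left out probe sets whose names end in _x_at, _s_at or _a_at, called suffixed here. The names alone do not show that such probe sets read other genes. A gene was under background in a group where all its arrays lay below the brightest of 17 unused tag controls, and its fold is then given as a lower bound. So few arrays limit the precision of every value. Median intensities were 49.6 and 47.4 at 36 h and 51.7 and 52.3 at 0 h. Pearson's r over probe sets was 0.9876 between the 36 h arrays, 0.9953 between the 0 h arrays and 0.9644 to 0.9748 across the groups. The 18 spiked hybridization controls averaged 9.139 on the log2 scale at 36 h and 9.961 at 0 h, a difference of -0.82 that moved with the groups. The ratio of 3′ to 5′ signal of the beta-actin control was 1.24 and 1.25 at 36 h, and 1.42 and 1.45 at 0 h. For the Gapdh control it was 0.986 and 1.03 at 36 h, and 0.933 and 0.964 at 0 h, a small difference in the other direction. The part of these in the results was not tested beyond a fit with the controls' level as a covariate, which gave 223 higher and 309 lower calls. Of the 2597 genes called without the covariate, 281 were called with it and 125 took the other sign. As the controls moved with the groups, that fit cannot cleanly separate time from the controls' level.

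At 36 h, 973 genes were higher and 1624 lower than at 0 h, and for every one of these the 36 h arrays did not overlap the 0 h arrays. Such separation was common, since 24.3 % of all genes showed it upward and 40.3 % downward. Called genes were 15.2 % of all tested, 5.69 % higher and 9.5 % lower. Changes over 2-fold were found for 178 higher and 265 lower genes, and changes over 4-fold for 26 higher and 24 lower genes. The median change over all genes was -0.06. Centring the arrays on their medians gave 1201 higher and 1045 lower genes, so the share of higher calls was 53.5 % there and 37.5 % without. The count depended on single arrays. It fell to 247 higher and 486 lower without 0 h replicate 1, 197 and 384 without 0 h replicate 2, and 411 and 633 without 36 h replicate 2. In all, 175 higher and 323 lower genes stayed past the threshold whichever of the 12 arrays was left out. No called gene changed sign when an array was left out, but the lack of overlap fixed this in advance.

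**Figure D1:**
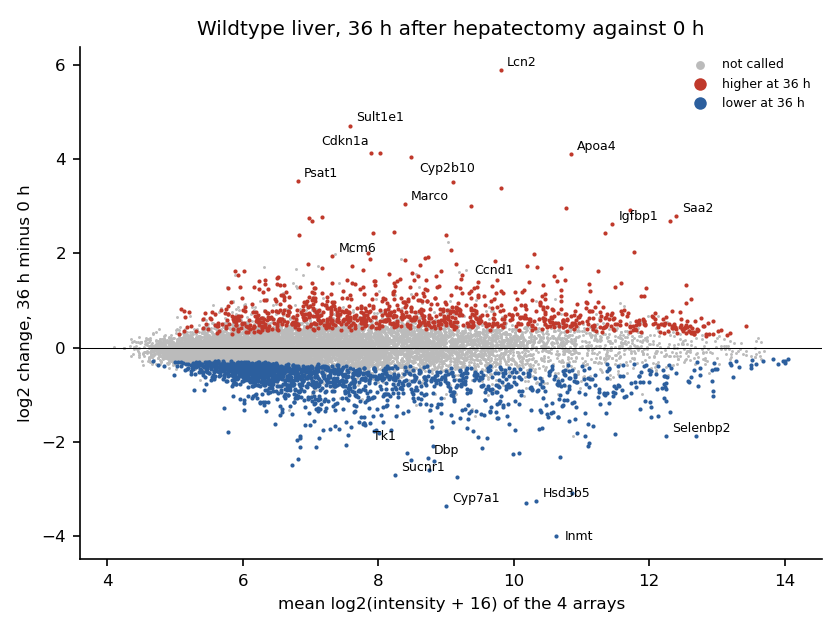
Log2 change at 36 h minus 0 h (vertical axis) against the mean log2(intensity + 16) of the 4 arrays (horizontal axis), 1 point for each of 17097 genes. Red points are the 973 genes called higher at 36 h and blue points the 1624 called lower; Lcn2 is at the top and Inmt at the bottom.

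The largest rise was that of Lcn2, a siderophore-binding protein secreted in the acute phase. Its intensity was 7524 and 6308 at 36 h, against 121 and 82.8 at 0 h, a 59.4-fold change (log2 change 5.89 ± 0.26, adjusted p = 1.47e-06). Sult1e1, the sulfotransferase that inactivates oestrogens, had 457 and 2019.8 at 36 h, against 24.8 and 18.1 at 0 h. Both 36 h arrays were far above both 0 h arrays, which lay under background, and the rise was at least 22.7-fold (log2 change 4.72 ± 0.80, adjusted p = 0.00813). It was uneven between the 36 h pools and came to 3.66 without replicate 2.

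Cdkn1a encodes the cyclin-dependent kinase inhibitor p21, and it stood at 861 and 1338 at 36 h, against 49.7 and 42.7 at 0 h (log2 change 4.13 ± 0.34, adjusted p = 0.000149). Apoa4, an apolipoprotein of triglyceride-rich particles, had 6878 and 8391 at 36 h, against 467 and 389.7 at 0 h (log2 change 4.10 ± 0.23, adjusted p = 7.09e-06). Cyp2b10, the cytochrome P450 that responds to the receptor CAR, had 1046 and 1960.5 at 36 h, against 94.2 and 53.6 at 0 h (log2 change 4.05 ± 0.57, adjusted p = 0.00328). For these 3 genes both 36 h arrays lay far above both 0 h arrays, and the pools at 36 h were spread most for Cyp2b10.

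Ly6d, a small membrane-anchored protein first known from lymphocytes, reached 948 and 1009.5 at 36 h, against 42.5 and 38.5 at 0 h (log2 change 4.14 ± 0.18, adjusted p = 9.38e-07). Psat1, an enzyme of serine synthesis, was under background at 0 h and rose at least 8.66-fold. Mfsd2a, a transporter of lysophosphatidylcholine, rose 11.5-fold (log2 change 3.53 ± 0.74, limma's adjusted p = 0.0189), but lost the call without any 1 of the 4 arrays compared. Tubb2a, a beta-tubulin, rose 7.87-fold. Tnfrsf12a, the receptor of the cytokine TWEAK, had 1128 and 3064 at 36 h, against 229 and 209 at 0 h (log2 change 3.00 ± 0.55, adjusted p = 0.00968). Thbd, the thrombin-binding thrombomodulin, rose at least 7.35-fold from under background. Acnat2, which conjugates fatty acids to taurine in mice, rose 5.45-fold. The 36 h arrays lay close together for Ly6d and apart for Tnfrsf12a, whose change came to 2.28 without replicate 2.
Of the 12 genes named here and called against 0 h, 9 stayed past the threshold whichever of the 12 arrays was left out. The number that lost the call was 3 for 0 h replicate 1, 3 for 0 h replicate 2, 1 for 36 h replicate 1 and 1 for 36 h replicate 2, with adjusted p up to 0.118.

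The largest fall was that of Inmt, an N-methyltransferase of indoleamines. Its intensity was 313 and 461 at 36 h, against 6084 and 6545 at 0 h (log2 change -4.00 ± 0.72, adjusted p = 0.0106). Of the 7 measured members of the 3-beta-hydroxysteroid dehydrogenase family, 4 were among the 20 largest falls and Hsd3b1, Hsd3b4 and Hsd3b7, named here after their values were seen, were not called (-0.27, -0.12 and -0.43). Hsd3b5 had 286 and 563 at 36 h, against 4146 and 3807 at 0 h (log2 change -3.25 ± 0.56, adjusted p = 0.00739), and Hsd3b6, Hsd3b2 and Hsd3b3 fell 6.69-, 5.21- and 4.73-fold. Hsd3b3 lost the call without any 1 of the 4 arrays compared (adjusted p up to 0.097), and Hsd3b5 without either 0 h array (up to 0.0527). These genes are close copies in the mouse, so their probe sets may share signal and the 4 values are not independent.

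Cyp7a1, the rate-limiting enzyme of bile acid synthesis, had 351 and 53.7 at 36 h, against 1738 and 1531 at 0 h (log2 change -3.37 ± 0.83, adjusted p = 0.032). Upp2, a liver uridine phosphorylase, had 655 and 188 at 36 h, against 3645 and 3653 at 0 h (log2 change -3.31 ± 0.65, adjusted p = 0.0143). For both genes the 36 h arrays lay below the 0 h arrays but far apart from each other, with replicate 2 the lower. Without replicate 2 the changes were -2.17 for Cyp7a1 and -2.45 for Upp2.

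Sult2a8, a sulfotransferase of bile acids in mouse liver, fell 8.55-fold. Sucnr1, the succinate receptor, had 99.8 and 106 at 36 h, against 781 and 741 at 0 h (log2 change -2.71 ± 0.19, adjusted p = 2.55e-05). The carboxylesterase Ces1e and the transporter Abca8a fell 6.08- and 5.33-fold. H2-Aa, a chain of MHC class II, had 138 and 146 at 36 h, against 961 and 546 at 0 h (log2 change -2.23 ± 0.29, adjusted p = 0.00114), and the lectin-like gene Clec2h, under background at 36 h, fell at least 6.12-fold. Car1, the carbonic anhydrase of red cells, fell 4.35-fold, and in bulk RNA fewer cells of a type and less RNA per cell cannot be told apart. Bmf, a pro-apoptotic BCL2 family member, fell 4.34-fold. Keg1 and Tlcd2 fell 5.02- and 4.81-fold, as did the unnamed transcripts C730036E19Rik, at least 6.23-fold, and 1810008I18Rik, 4.41-fold.
Among the 19 called genes of this group, 14 kept the call with any 1 of the 12 arrays removed. The calls lost were 5 without 0 h replicate 1, 5 without 0 h replicate 2, 1 without 36 h replicate 1 and 3 without 36 h replicate 2 (adjusted p up to 0.142).

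**Figure D2:**
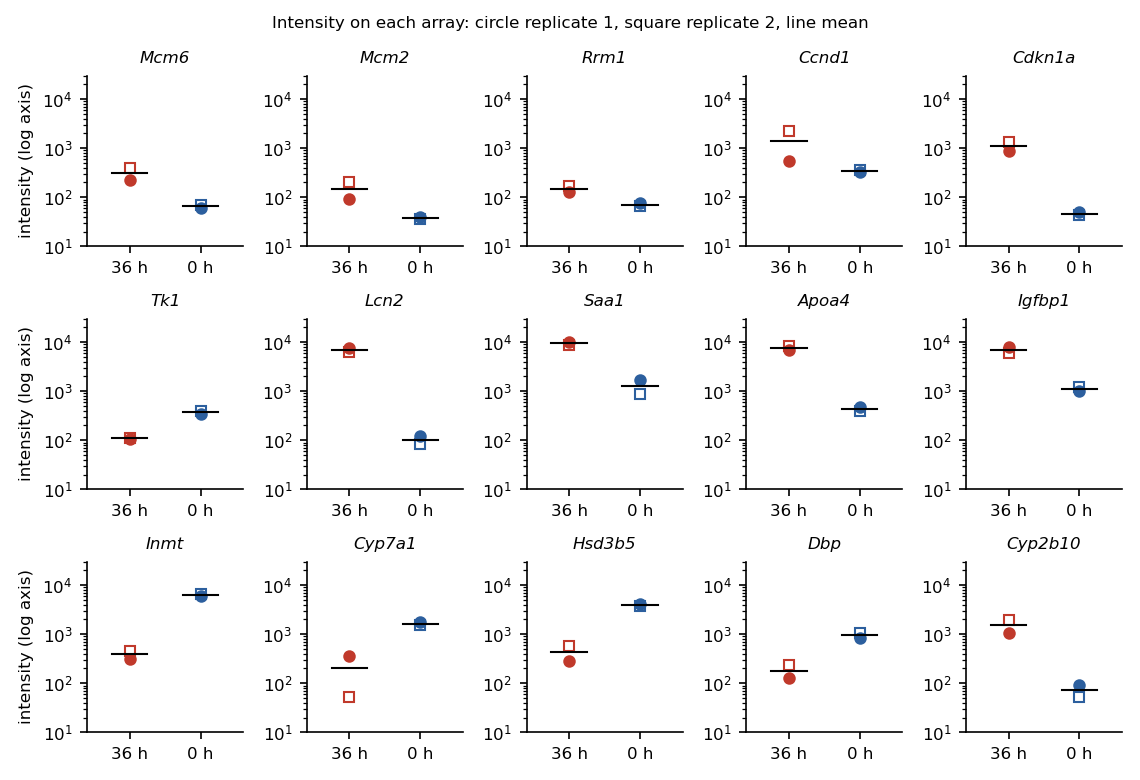
Intensity on each of the 4 arrays (log axis) for 15 genes, with 36 h on the left and 0 h on the right of each panel. Circles are replicate 1, squares replicate 2 and lines the mean of 2 pools. The groups do not overlap in any panel, a separation that 24.3 % of all genes showed upward and 40.3 % downward. The 36 h pools stand apart most for Ccnd1 and Cyp7a1.

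Read by gene group, the higher calls were densest among cytosolic ribosomal proteins and acute phase genes. The lower calls were densest among male-biased genes, then erythroid and hepatocyte markers, complement and coagulation genes. The lists were chosen with earlier results of these data known, so this ranking is a description only. Beside each count below stand 5.69 % of all genes called higher and 9.5 % called lower. Counts within the groups moved with single arrays, as the counts over all genes did. Without 0 h replicate 1 and 0 h replicate 2 in turn, 0 and 0 DNA synthesis genes, 2 and 1 glycolysis genes, 2 and 2 bile acid synthesis genes and 4 and 4 urea cycle and amino acid genes were called in the direction described below.

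**Figure D3:**
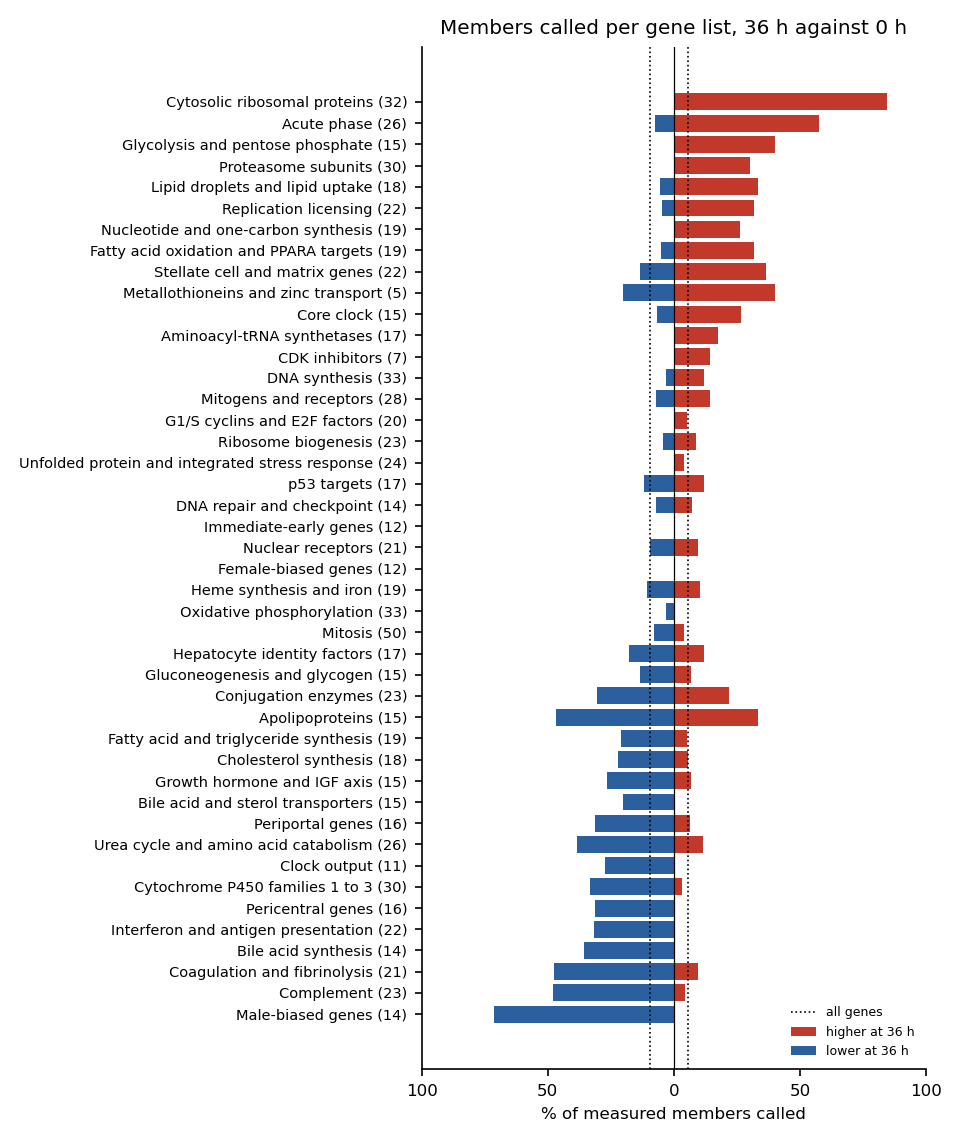
Share of the measured members of each gene list (number in brackets) called higher (red, to the right) or lower (blue, to the left) at 36 h than at 0 h; dotted lines mark 5.69 % higher and 9.5 % lower over all genes. Of the cytosolic ribosomal proteins 27 of 32 were higher, and of the male-biased genes 10 of 14 were lower.

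Some genes of the replicative helicase and of its loading and activation rose. Of the replication licensing genes 36.4 % were called in either direction, against 15.2 % of all genes. The shares were 15.2 % for DNA synthesis, 5 % for G1/S cyclins and E2F factors and 12 % for mitosis, at or below that of all genes. Of 22 replication licensing genes 7 rose and 1 fell, with a median change of 0.50; without 0 h replicate 1 and 0 h replicate 2 in turn, 0 and 2 of them were called higher. Of 33 DNA synthesis genes 4 rose and 1 fell (median 0.35), of 20 G1/S cyclins and E2F factors 1 rose (median 0.26), and of 50 mitosis genes 2 rose and 4 fell (median 0.18).

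The helicase subunit Mcm6 had 223 and 393 at 36 h, against 60.9 and 70.5 at 0 h (log2 change 1.94 ± 0.35, adjusted p = 0.00627). Mcm2, another subunit, had 93.2 and 202 at 36 h, against 40.2 and 36.6 at 0 h (log2 change 1.504 ± 0.38, adjusted p = 0.0288), and its 0 h arrays lay under background, which puts the rise at 3.25-fold or more. Mcm4 had 81.7 and 216 at 36 h, against 53.7 and 47.3 at 0 h (log2 change 1.18 ± 0.32, adjusted p = 0.0329). In each of the 3 the 36 h arrays lay above the 0 h arrays, and 36 h replicate 2 was well above replicate 1. Without replicate 2 the change of Mcm4 was 0.56. The helicase subunit Mcm3, the loading factor Cdt1, the kinase activator Dbf4 and the helicase component Gins2 rose as well, the last 3 with log2 changes of 1.04, 0.62 and 0.57. Among enzymes of DNA synthesis, Rrm1, a subunit of ribonucleotide reductase, had 126 and 166 at 36 h, against 74.7 and 66.8 at 0 h (log2 change 0.89 ± 0.24, adjusted p = 0.028). The primase subunit Prim1, the flap endonuclease Fen1 and the maintenance methyltransferase Dnmt1 changed by 0.89, 0.76 and 0.57. Rbl1, a pocket protein that binds E2F factors, and the checkpoint kinase Chek1 rose. Mcm3, Rbl1 and Chek1 lay under background at 0 h, so they were at least 1.38-, 1.3- and 1.2-fold higher.

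Cyclin D1 (Ccnd1), which drives G1, had 548 and 2185 at 36 h, against 322 and 356 at 0 h (log2 change 1.65 ± 0.49, adjusted p = 0.0517) and missed the threshold. Both 36 h arrays were above both 0 h arrays, but 36 h replicate 2 was far above replicate 1, and the change came to 0.67 without replicate 2. Cyclins E1 and E2 were not called either, at 75.4 and 122 at 36 h, against 55.7 and 61.5 at 0 h for Ccne1 and 35.2 and 91.4 at 36 h, against 23.8 and 32.7 at 0 h for Ccne2. The kinase inhibitor Cdkn1a, given above, rose, while none of the other 6 measured CDK inhibitors passed the test. The list of 17 other p53 targets does not hold Cdkn1a. In it Mdm2 rose by 0.45 and Phlda3 at least 1.09-fold from under background, and Bbc3 and Sesn1 fell (-0.50 and -0.40).

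Several cell cycle genes went down. Mcm10, which links helicase activation to polymerase, had 434 and 337 at 36 h, against 1531 and 1466 at 0 h (log2 change -1.92 ± 0.27, adjusted p = 0.00166), and Tk1, thymidine kinase, had 109 and 113 at 36 h, against 344 and 402 at 0 h (log2 change -1.61 ± 0.27, adjusted p = 0.0042). In mitosis, the securin Pttg1 had 873 and 897 at 36 h, against 1675 and 1661 at 0 h (log2 change -0.90 ± 0.12, adjusted p = 0.000877), and Cenpf, Spc24 and Incenp of the centromere fell by 0.78, 0.82 and 0.40. Spc25 of the same complex as Spc24 rose by 0.98, and the separase Espl1 was called higher while under background in both groups. The Fanconi protein Fancd2 fell by 0.57. With the level of the hybridization controls as a covariate, Mcm2, Cdt1, Gins2, Prim1, Rrm1, Dnmt1, Chek1, Spc25 and Phlda3 took the opposite sign, and none of them was called there.
Of the 27 genes named here and called against 0 h, 6 stayed past the threshold whichever of the 12 arrays was left out. The number that lost the call was 21 for 0 h replicate 1, 19 for 0 h replicate 2, 6 for 36 h replicate 1 and 20 for 36 h replicate 2, with adjusted p up to 0.302.

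The pools at 36 h differed from each other in a group-wise way. Replicate 2 was above replicate 1 in 90.9 % of DNA synthesis genes, 91.3 % of ribosome biogenesis genes and 91.7 % of immediate-early genes, against 44.5 % of all genes. It was above replicate 1 in 9.09 % of oxidative phosphorylation genes and 11.5 % of urea cycle and amino acid genes. The median difference, replicate 2 minus replicate 1, was 0.52 for replication licensing, 0.40 for DNA synthesis, 0.58 for immediate-early genes and -0.32 for urea cycle and amino acid genes, against -0.03 over all genes. Without replicate 1 at 36 h, 14 licensing, 11 DNA synthesis and 10 mitosis genes were called higher. Without replicate 2 the counts were 1, 0 and 0. The source of this difference was not tested.

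**Figure D4:**
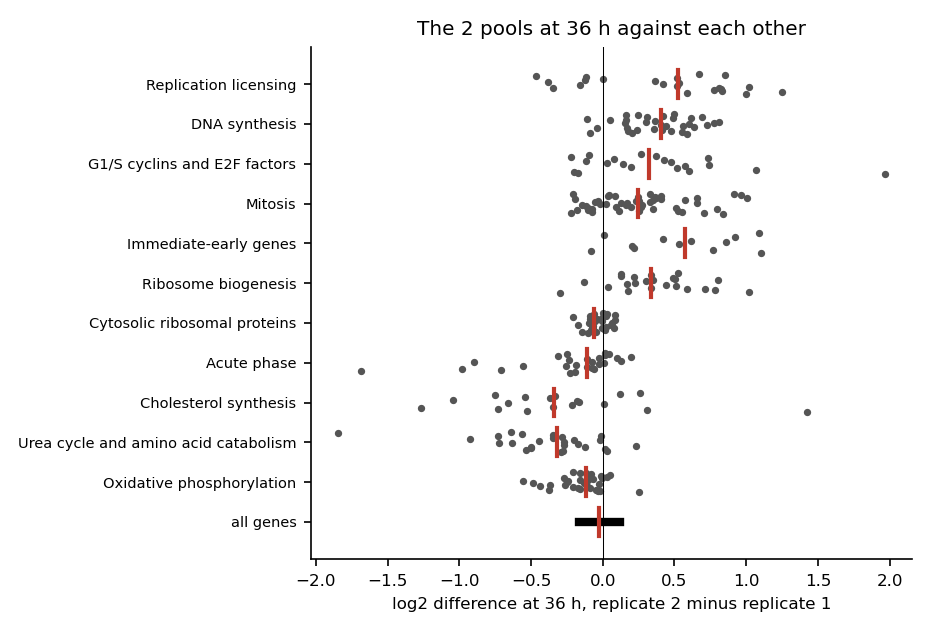
Log2 difference at 36 h, replicate 2 minus replicate 1, for the members of 11 gene lists (grey points, spread vertically for display) with the list median (red line), and for all genes the median with the middle 50 % of genes (black bar, -0.16 to 0.12). The lists of replication licensing, DNA synthesis and immediate-early genes sit to the right of all genes.

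The promoters of 3 helicase subunits that rose are shown for the cell cycle motifs they hold. Each runs from 250 bases before to 50 after the start site, 5′ to 3′ on the gene's strand, from RefSeq on build GRCm38.p6. Capitals mark the motifs TTTGAA (the cell cycle homology region), CCAAT, TTTCCCGC and TTTGGCGC (2 forms of E2F site), searched on both strands.
Mcm6 (chr1:128359656-128359955, minus strand): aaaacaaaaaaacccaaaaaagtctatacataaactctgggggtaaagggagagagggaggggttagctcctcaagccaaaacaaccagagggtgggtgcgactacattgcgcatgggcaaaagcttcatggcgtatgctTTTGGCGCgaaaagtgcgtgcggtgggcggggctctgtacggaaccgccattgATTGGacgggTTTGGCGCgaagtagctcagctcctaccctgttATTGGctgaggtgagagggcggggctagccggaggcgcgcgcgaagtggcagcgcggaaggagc
Mcm3 (chr1:20820263-20820562, minus strand): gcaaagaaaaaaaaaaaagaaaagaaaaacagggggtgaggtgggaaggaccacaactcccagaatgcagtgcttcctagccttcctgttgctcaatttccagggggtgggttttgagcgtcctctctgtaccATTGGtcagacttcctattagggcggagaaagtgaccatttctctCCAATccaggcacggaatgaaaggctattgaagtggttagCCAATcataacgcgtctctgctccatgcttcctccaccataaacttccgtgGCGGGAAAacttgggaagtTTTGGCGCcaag
Mcm2 (chr6:88898731-88899030, minus strand): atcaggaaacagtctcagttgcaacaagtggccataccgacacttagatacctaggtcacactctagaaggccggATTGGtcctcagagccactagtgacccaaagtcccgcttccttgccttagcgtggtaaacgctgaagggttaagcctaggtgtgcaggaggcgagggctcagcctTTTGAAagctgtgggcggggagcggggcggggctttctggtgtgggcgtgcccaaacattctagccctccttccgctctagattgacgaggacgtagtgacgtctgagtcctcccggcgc
The Mcm6 window holds TTTGGCGC 2 times and CCAAT 2 times, and the Mcm2 window holds TTTGAA 1 time and CCAAT 1 time. Of 14 cell cycle list members called higher, 12 had a promoter in the table, and 3 of these (25 %) held either E2F form, against 2.47 % of the promoters of 13514 measured genes. TTTGAA was in 6 of the 12 (50 %) against 13.3 %, and CCAAT in 8 of the 12 (66.7 %) against 38.4 %. Members of the same lists that were not called held them in 17, 37 and 54 of 86 promoters, or 19.8 %, 43 % and 62.8 %. The first listed start site was used for each gene, and a match is a description of letters only.

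Genes of the ribosome were higher at 36 h. Of 32 cytosolic ribosomal protein genes 27 rose and none fell, every change was positive, and the median was 0.41. Without 0 h replicate 1 and 0 h replicate 2 in turn 9 and 8 were called, and with the hybridization controls as a covariate 1. Rpl12 had 4111 and 4352 at 36 h, against 2485 and 2600.5 at 0 h (log2 change 0.73 ± 0.09, adjusted p = 0.000861), the largest change of the set, and Rpl13 had 7360.3 and 7329 at 36 h, against 4922 and 4972 at 0 h (log2 change 0.57 ± 0.08, adjusted p = 0.00112). The arrays of the groups did not overlap for any of them, a separation that 24.3 % of all genes showed upward and 40.3 % downward, and summed intensity was 214300 and 209100 at 36 h against 162500 and 162500 at 0 h. Ribosomal protein genes have many processed copies in the genome, so single probe sets may carry signal of several.

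Factors that build ribosomes were called in fewer cases, with 2 of 23 called higher, 1 called lower and a median of 0.45. The share called was 13 %, against 15.2 % of all genes. The RNA helicase Ddx21 had 366 and 526 at 36 h, against 184 and 181 at 0 h (log2 change 1.20 ± 0.26, adjusted p = 0.0122), and Rrs1 changed by 0.59. Nucleolin (Ncl) had 55.7 and 42.4 at 36 h, against 78.7 and 76.2 at 0 h (log2 change -0.53 ± 0.16, limma's adjusted p = 0.0483). These values were not far above the brightest tag controls, 43.5 and 34 at 36 h and 41.7 and 42.8 at 0 h. Of 17 aminoacyl-tRNA synthetases 3 rose (Gars, Lars and Iars, 0.78, 0.55 and 0.65) and none fell, 17.6 % against 15.2 % of all genes.

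Of 30 proteasome subunits 9 rose and none fell (median 0.37), and without 0 h replicate 1 and 0 h replicate 2 in turn 2 and 0 were called. Psmc4, an ATPase of the regulatory particle, had 1966 and 1765 at 36 h, against 1206 and 1155 at 0 h (log2 change 0.65 ± 0.11, adjusted p = 0.00419), and Psmd8 changed by 0.75. The immune subunits Psmb8 and Psmb9 went the other way, at -0.80 and -0.64. Of 33 oxidative phosphorylation genes only Sdhb, of succinate dehydrogenase, was called (-0.37), and the median was -0.10. Of 24 genes of the unfolded protein and integrated stress responses only the chaperone Calr was called (0.57). The shares of these 2 lists, 3.03 % and 4.17 %, lay below the 15.2 % of all genes.

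Nucleotide and serine synthesis had 5 of 19 genes higher and none lower. Psat1, which makes phosphoserine, had 239.8 and 558 at 36 h, against 17.1 and 16.7 at 0 h (log2 change 3.54 ± 0.41, adjusted p = 0.00102), and Psph, which completes serine, had 262 and 407 at 36 h, against 124 and 125 at 0 h (log2 change 1.28 ± 0.25, adjusted p = 0.00791). Among purine enzymes Ppat and Pfas changed by 0.52 and 0.38, and Impdh1 was at least 1.39-fold higher from under background. Glycolysis and the pentose phosphate pathway had 6 of 15 genes higher and none lower, among them lactate dehydrogenase Ldha (0.57), Pkm (0.68), Aldoa (0.90) and Pgd of the pentose pathway (1.27).
Among the 23 called genes of this group, 4 kept the call with any 1 of the 12 arrays removed. The calls lost were 16 without 0 h replicate 1, 18 without 0 h replicate 2, 2 without 36 h replicate 1 and 16 without 36 h replicate 2 (adjusted p up to 0.29).

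Acute phase genes had the highest median change of the 54 lists, 0.58. Of 26 measured, 15 rose and 2 fell, and 12 to 14 were called higher without any 1 of the 4 arrays compared. Besides Lcn2, serum amyloid Saa1 had 10082 and 8583 at 36 h, against 1685 and 870.3 at 0 h (log2 change 2.92 ± 0.33, adjusted p = 0.000944) and Saa2 had 15128 and 13241 at 36 h, against 2917 and 1396 at 0 h (log2 change 2.80 ± 0.32, adjusted p = 0.00118). The 0 h arrays lay apart from each other for both genes, replicate 1 the higher, and both 36 h arrays were well above them. The 2 genes are near copies, as are Orm2 and Orm3, so the values within each pair are not independent.

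The orosomucoid Orm2 had 4059 and 2052 at 36 h, against 314 and 215 at 0 h (log2 change 3.40 ± 0.29, adjusted p = 0.000149), and Orm3 rose at least 8.53-fold from under background. Serum amyloid P (Apcs) had 7537 and 6622 at 36 h, against 1694 and 1732 at 0 h (log2 change 2.03 ± 0.13, adjusted p = 1.22e-05). Smaller rises were those of the protease inhibitor Serpina3n (3.1-fold), Fgl1 (2.4-fold), Lrg1 (2.05-fold), Itih3 (1.69-fold), Itih4 (1.54-fold) and haptoglobin Hp (1.37-fold). The negative acute phase genes Ttr and Alb changed by -0.28 and -0.25, and neither was called when arrays were centred on their medians. Mt1, the metal-binding metallothionein, had 13771 and 11951 at 36 h, against 2727 and 1448 at 0 h (log2 change 2.68 ± 0.36, adjusted p = 0.00255).

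Called coagulation and complement genes, also products of hepatocytes, were mostly lower. Of 21 coagulation and fibrinolysis genes 10 fell and 2 rose (median -0.40). F13b, a subunit of factor XIII, had 1404 and 1125 at 36 h, against 2821 and 2778 at 0 h (log2 change -1.15 ± 0.16, adjusted p = 0.0011), protein C (Proc) had 2699 and 2783 at 36 h, against 4662 and 4399 at 0 h (log2 change -0.72 ± 0.11, adjusted p = 0.00203), and F11, Klkb1 and F7 changed by -0.95, -1.21 and -0.95. The rises were those of Thbd and of Plat, at least 1.58-fold from under background. Of 23 complement genes 11 fell and 1 rose (median -0.38), and without 0 h replicate 1 and 0 h replicate 2 in turn 5 and 6 complement and 2 and 2 coagulation genes were called lower. C8b of the membrane attack complex had 972 and 1093 at 36 h, against 3262 and 2921 at 0 h (log2 change -1.57 ± 0.16, adjusted p = 0.000244), and C2, C6, Mbl2 and C8g changed by -1.20, -1.08, -1.01 and -0.62. C4bp, an inhibitor of the pathway, was the exception at 0.50, and it took the opposite sign (-0.05) with the hybridization controls as a covariate.

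Interferon and antigen presentation genes had 7 of 22 lower and none higher. The chemokine Cxcl9 had 59.5 and 66.2 at 36 h, against 319.9 and 194 at 0 h (log2 change -1.76 ± 0.24, adjusted p = 0.00127), the GTPase Ifi47 had 251 and 344 at 36 h, against 739 and 659.8 at 0 h (log2 change -1.20 ± 0.17, adjusted p = 0.0014), and the transcription factor Irf7 changed by -0.81.
Of the 31 genes named here and called against 0 h, 23 stayed past the threshold whichever of the 12 arrays was left out. The number that lost the call was 7 for 0 h replicate 1, 8 for 0 h replicate 2, 4 for 36 h replicate 1 and 6 for 36 h replicate 2, with adjusted p up to 0.356.

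Lipid genes were called in both directions, differing by list. Of 18 droplet and uptake genes 6 rose and 1 fell, and without suffixed probe sets 4 of 15 rose and 2 fell. The droplet coat proteins Plin5 and Plin2 had 1537 and 1636 at 36 h, against 489.9 and 383 at 0 h for Plin5 (log2 change 1.83 ± 0.17, adjusted p = 0.000149) and 8896 and 10072 at 36 h, against 3979.7 and 3539 at 0 h for Plin2 (log2 change 1.33 ± 0.20, adjusted p = 0.00219). The importer Cd36 and the lipase inhibitor G0s2 changed by 0.98 and 1.52. The fatty acid carrier Fabp4 and the lipase inhibitor Angptl4 changed by 1.46 and 1.40, but their probe sets disagreed. Without suffixed probe sets the values were -0.75 (limma's adjusted p = 0.0198) and -0.05, so no direction is settled for either. Fitm1, a droplet protein of the endoplasmic reticulum, fell by 0.92.

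Fatty acid oxidation and PPARA targets had 6 of 19 higher and 1 lower (median 0.33). Cyp4a10, an omega-hydroxylase, had 3765 and 2991 at 36 h, against 1563 and 1349.5 at 0 h (log2 change 1.20 ± 0.14, adjusted p = 0.000548), the thioesterase Acot1 changed by 1.58, and Cpt1a and Cpt2, of carnitine-dependent import, by 0.46 and 0.43. The peroxisomal thiolase Acaa1b fell by 1.37. Fgf21, a hormone under PPARA control, had 129 and 732 at 36 h, against 36.4 and 33.4 at 0 h (log2 change 2.69 ± 0.73, adjusted p = 0.0439; at least 7.27-fold from under background), with 36 h replicate 2 far above replicate 1 and a change of 1.51 without replicate 2.

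Of 19 genes of fatty acid and triglyceride synthesis 1 rose and 4 fell. Insig2, a brake on sterol-regulated transcription, had 5556 and 6626 at 36 h, against 1229 and 999.6 at 0 h (log2 change 2.44 ± 0.13, adjusted p = 3.53e-06), whereas its relative Insig1 had 996 and 1198 at 36 h, against 2644 and 2487 at 0 h (log2 change -1.22 ± 0.26, adjusted p = 0.0119). Scd1, the stearoyl-CoA desaturase, had 5079 and 5943 at 36 h, against 12103 and 10538 at 0 h (log2 change -1.04 ± 0.13, adjusted p = 0.000803), and Acss2, Fads1 and the transcription factor Mlxipl changed by -1.63, -0.79 and -0.80. Cholesterol synthesis had 4 of 18 genes lower (Insig1, Tm7sf2, Sc5d and Ebp, the last 3 at -0.99, -0.97 and -0.59) and 1 higher (Hsd17b7, 0.70). Of 15 genes of apolipoproteins and particle assembly 5 rose and 7 fell. Apob had 3594 and 2455 at 36 h, against 886 and 937 at 0 h (log2 change 1.69 ± 0.24, adjusted p = 0.0014), Apoc2 had 8237 and 8348 at 36 h, against 4354 and 4268 at 0 h (log2 change 0.94 ± 0.09, adjusted p = 0.000149), while Apom, Apoc1 and Apoe fell by 0.57, 0.42 and 0.35.
Among the 28 called genes of this group, 9 kept the call with any 1 of the 12 arrays removed. The calls lost were 16 without 0 h replicate 1, 19 without 0 h replicate 2, 7 without 36 h replicate 1 and 11 without 36 h replicate 2 (adjusted p up to 0.226).

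In the urea cycle and amino acid catabolism 10 of 26 genes fell and 3 rose. Otc, which makes citrulline, had 2321 and 2375 at 36 h, against 5865 and 5830.1 at 0 h (log2 change -1.31 ± 0.15, adjusted p = 0.000386), and Ass1, the next enzyme of the cycle, changed by -0.73. Agxt, which detoxifies glyoxylate, had 974 and 844 at 36 h, against 2503 and 2336 at 0 h (log2 change -1.40 ± 0.13, adjusted p = 0.000149), and Haao of tryptophan breakdown had 1396 and 891 at 36 h, against 3259 and 3230 at 0 h (log2 change -1.53 ± 0.21, adjusted p = 0.00112). Gnmt, Prodh, Hpd and Fah changed by -0.62, -1.22, -0.71 and -0.54. The 3 rises were those of Mat1a, Glud1 and Aass (0.56, 0.50 and 0.73), of which Glud1 took the opposite sign with the hybridization controls as a covariate.

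Bile acid synthesis had 5 of 14 genes lower and none higher (median -0.56). Beside Cyp7a1, Cyp27a1 of the alternative pathway had 1951 and 2432 at 36 h, against 4379 and 4684 at 0 h (log2 change -1.05 ± 0.13, adjusted p = 0.000803). Akr1d1, the conjugation enzyme Slc27a5 and the bile acid receptor Nr1h4 changed by -1.13, -0.88 and -0.61. Of the transporters, the sterol exporter subunit Abcg8 had 142 and 189.6 at 36 h, against 412 and 406 at 0 h (log2 change -1.24 ± 0.17, adjusted p = 0.00102), the uptake carrier Slco1a1 had 612 and 905 at 36 h, against 2382 and 2529 at 0 h (log2 change -1.70 ± 0.28, adjusted p = 0.00334), and Slc22a7 changed by -0.78. The exporter Abcb11 (-0.54) and the basolateral exporter subunit Slc51b (1.67, with 62.8 and 471 at 36 h, against 41.2 and 50.1 at 0 h) were not called.

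Of 30 cytochrome P450 genes of families 1 to 3, 10 fell and Cyp2b10 alone was called higher. Cyp2c23 had 952 and 1242 at 36 h, against 3949.6 and 4128 at 0 h (log2 change -1.88 ± 0.28, adjusted p = 0.0026) and Cyp2f2 had 5677 and 5694 at 36 h, against 10738 and 10900 at 0 h (log2 change -0.93 ± 0.13, adjusted p = 0.00124). Cyp2c70, Cyp1a2, Cyp2a5 and Cyp2e1 changed by -1.26, -1.16, -1.48 and -0.43. Conjugation enzymes went both ways, 7 lower and 5 higher of 23. Sult5a1, Ugt2b1 and Gstt1 changed by -1.59, -1.45 and -0.97, and Sult1a1, Gstm2 and Gstm3 by 0.79, 1.22 and 1.30, with the opposite sign for both Gstm genes under that covariate. Genes within these P450 and transferase families are similar in sequence, so single values are uncertain. The xenobiotic receptor Nr1i2 (PXR) had 638 and 751 at 36 h, against 356 and 336 at 0 h (log2 change 0.97 ± 0.14, adjusted p = 0.00127).

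Among liver transcription factors, Cebpa, which holds hepatocytes in the differentiated resting state, had 735 and 642 at 36 h, against 1415 and 1627 at 0 h (log2 change -1.12 ± 0.21, adjusted p = 0.0062), Cebpb changed by 0.44, Onecut1 by -1.40 and Prox1 by 0.59. Glucose genes were called in 3 of 15 cases, 20 % against 15.2 % of all genes. Foxo1 was at least 1.87-fold higher from under background, and the receptors Insr and Gcgr changed by -0.61 and -0.53. By position in the lobule, 5 of 16 pericentral and 5 of 16 periportal genes were lower, with none and 1 higher. The pericentral ammonium transporter Rhbg had 100.4 and 87.7 at 36 h, against 209.7 and 230.1 at 0 h (log2 change -1.10 ± 0.17, adjusted p = 0.00223). Of 10 fetal liver genes none was called higher, and Afp had 70.6 and 84.2 at 36 h, against 60.3 and 52.5 at 0 h (log2 change 0.37 ± 0.33, adjusted p = 0.49).
Of the 41 genes named here and called against 0 h, 18 stayed past the threshold whichever of the 12 arrays was left out. The number that lost the call was 21 for 0 h replicate 1, 23 for 0 h replicate 2, 8 for 36 h replicate 1 and 15 for 36 h replicate 2, with adjusted p up to 0.272.

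Growth hormone signalling from the pituitary sets IGF production and the sex-dependent programme of mouse liver. Of 15 genes of this axis 4 fell and 1 rose (median -0.52). Igfbp1, an IGF-binding protein induced in regenerating liver, had 7943 and 6070.1 at 36 h, against 1024 and 1224 at 0 h (log2 change 2.62 ± 0.41, adjusted p = 0.00502). Igfals, the subunit that keeps IGF in the circulation, had 291 and 231 at 36 h, against 622 and 604 at 0 h (log2 change -1.19 ± 0.20, adjusted p = 0.00372), Igfbp2 had 1725 and 1497 at 36 h, against 4485 and 4028 at 0 h (log2 change -1.39 ± 0.27, adjusted p = 0.00937, of the opposite sign with the hybridization controls as a covariate), and the receptor Ghr had 2984 and 2263 at 36 h, against 4366 and 4427 at 0 h (log2 change -0.75 ± 0.18, adjusted p = 0.0174). Igf1 itself was not called, with 6583 and 6231 at 36 h, against 6955 and 6995 at 0 h (log2 change -0.12 ± 0.08, adjusted p = 0.336). Socs2, the feedback inhibitor named in the design, had 264 and 173 at 36 h, against 546 and 261 at 0 h (log2 change -0.78 ± 0.42, adjusted p = 0.251); the arrays of the groups overlapped, since 36 h replicate 1 was above 0 h replicate 2, and it was not called.

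Male-biased genes were lower in 10 of 14 cases and higher in none (median -0.77), and in 6 and 6 cases without 0 h replicate 1 and 0 h replicate 2 in turn. Selenbp2, a selenium-binding protein, had 2637 and 2414 at 36 h, against 9589 and 9152 at 0 h (log2 change -1.89 ± 0.09, adjusted p = 1.47e-06). Besides Hsd3b5, Slco1a1, Ugt2b1 and C8b, the list held Nudt7 (-0.73), Ces3b (-0.81), Cyp4a12a (-0.86) and Gstp1 (-0.34). Of 12 female-biased genes none was called in either direction; centring the arrays on their medians or quantile normalization called 2 higher.

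Of 28 mitogens and receptors 4 rose and 2 fell, 21.4 % against 15.2 % of all genes. Hgf, made by non-parenchymal cells, had 69.6 and 55.5 at 36 h, against 41.1 and 43.2 at 0 h (log2 change 0.43 ± 0.12, limma's adjusted p = 0.0334). Its 0 h values lay about at the brightest tag controls of those arrays, 41.7 and 42.8. The HGF receptor Met had 571 and 795 at 36 h, against 875 and 864 at 0 h (log2 change -0.36 ± 0.18, limma's adjusted p = 0.207), not called. Inhbe, an activin subunit of hepatocytes, had 738 and 739 at 36 h, against 245 and 337 at 0 h (log2 change 1.31 ± 0.22, adjusted p = 0.00343), and the receptor Tnfrsf1a changed by 0.66. Vegfa and Lifr fell by 0.53 and 0.71. None of 12 immediate-early genes was called; Atf3 had 50.9 and 105 at 36 h, against 34.6 and 28.6 at 0 h (log2 change 0.92 ± 0.30, adjusted p = 0.0671).
Among the 18 called genes of this group, 9 kept the call with any 1 of the 12 arrays removed. The calls lost were 9 without 0 h replicate 1, 9 without 0 h replicate 2, 4 without 36 h replicate 1 and 4 without 36 h replicate 2 (adjusted p up to 0.198).

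The circadian clock is a loop in which CLOCK and ARNTL switch on the Per and Cry repressors and output genes such as Dbp. Of 15 core clock genes 4 were called higher and 1 lower, a count that includes Arntl, whose direction is not settled. Without suffixed probe sets 1 of 14 was called higher and 1 lower. Of 11 output genes 3 fell and none rose. The activators Clock and Arntl had 531 and 431 at 36 h, against 222 and 231 at 0 h for Clock (log2 change 1.03 ± 0.19, adjusted p = 0.00502) and 156 and 97.2 at 36 h, against 56.3 and 40.5 at 0 h for Arntl (log2 change 1.13 ± 0.27, adjusted p = 0.0187). The probe sets of Arntl disagreed, and without suffixed probe sets its change was -0.10 and that of Rora 0.36 (limma's adjusted p = 0.173). Cry1 had 109.9 and 118 at 36 h, against 52 and 51.6 at 0 h (log2 change 0.94 ± 0.13, adjusted p = 0.00129), and Rora had 991 and 984 at 36 h, against 439.8 and 400.3 at 0 h (log2 change 1.20 ± 0.18, adjusted p = 0.00205). Per3 had 44.5 and 58.4 at 36 h, against 136 and 151 at 0 h (log2 change -1.25 ± 0.17, adjusted p = 0.00102), and Dbp had 125 and 234 at 36 h, against 833 and 1068 at 0 h (log2 change -2.35 ± 0.24, adjusted p = 0.000239). The related output gene Tef changed by -1.08. The hour of harvest of the pools is not given, and its part in these values was not tested.
Of the 7 genes named here and called against 0 h, 4 stayed past the threshold whichever of the 12 arrays was left out. The number that lost the call was 2 for 0 h replicate 1, 2 for 0 h replicate 2, 1 for 36 h replicate 1 and 0 for 36 h replicate 2, with adjusted p up to 0.144.

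Markers of the labelled tissue were present throughout. Of 10 hepatocyte markers 5 were called lower: Alb, Ttr, Apoa1, Apoh and Serpina1c changed by -0.25, -0.28, -0.28, -0.29 and -0.28. None was called lower after centring on medians or quantile normalization, nor without either 0 h array, and quantile normalization turned the sign for Alb (0.03). Their summed intensity was 115400 and 116300 at 36 h and 131100 and 129300 at 0 h.

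Kupffer cell and macrophage markers went both ways. Marco, a scavenger receptor, had 942 and 961 at 36 h, against 112 and 89.8 at 0 h (log2 change 3.06 ± 0.28, adjusted p = 0.000163), Cd163 changed by 0.98 and Cd68 by 0.88. Clec4f, specific to Kupffer cells, had 401 and 357 at 36 h, against 689.7 and 713 at 0 h (log2 change -0.86 ± 0.13, adjusted p = 0.00197), and Csf1r changed by -0.46. Over 16 markers, 3 rose and 2 fell, 8 changes were positive and 8 negative, and the median was -0.03. The summed intensity, Marco included, was 9067 and 8793 at 36 h against 8539 and 7833 at 0 h. The rise of Marco alone was large beside the difference between these sums.

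Stellate cell and matrix genes had 8 of 22 higher and 3 lower. Col4a1, a chain of basement membrane collagen, had 495 and 529 at 36 h, against 184 and 170.2 at 0 h (log2 change 1.45 ± 0.19, adjusted p = 0.000896), smooth muscle actin Acta2 had 256 and 267 at 36 h, against 117 and 124 at 0 h (log2 change 1.03 ± 0.14, adjusted p = 0.000944), and Timp1, an inhibitor of matrix proteases, had 92.9 and 100 at 36 h, against 29.8 and 29.9 at 0 h, at least 2.28-fold higher. Vim, Fn1 and Sparc changed by 0.99, 0.68 and 0.61. The stellate cell markers Reln and Lrat, the latter an enzyme of retinoid storage, went down to 286 and 191 at 36 h, against 522 and 544 at 0 h for Reln (log2 change -1.14 ± 0.18, adjusted p = 0.00255) and by -1.05 for Lrat.

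Sinusoidal endothelial markers were lower in 4 of 18 cases (Kdr -0.66, Fcgr2b -0.64, Oit3 -0.65, Ptprb -0.43) and higher in 1 (Pecam1 0.44). Erythroid markers were lower in 5 of 10 cases, with Hba-a1 at 2809.6 and 3792 at 36 h, against 6917 and 6856 at 0 h (log2 change -1.07 ± 0.19, adjusted p = 0.00435), Alas2 at -1.43 and Klf1 at -1.09, and higher in 1, the transferrin receptor Tfrc (1.16), which other cells carry too; the summed level was 6538 and 7929 at 36 h against 13440 and 13540 at 0 h. The biliary peptide Tff3 had 111 and 100.8 at 36 h, against 353 and 342 at 0 h (log2 change -1.58 ± 0.13, adjusted p = 8.87e-05). The 9 cholangiocyte markers, Tff3 among them, summed to 531 and 571.2 at 36 h against 837.9 and 763.9 at 0 h. Much of that difference was the signal of Tff3 itself. Of the 9 markers 2 were called lower and none higher, with a median change of -0.10, against -0.06 over all genes. Cela1, listed among pancreas markers, had 367 and 308 at 36 h, against 936 and 1033 at 0 h (log2 change -1.504 ± 0.17, adjusted p = 0.000422). Of 11 neutrophil markers none was called higher and 1 lower (Mmp9, -0.38), and 7 changes were negative (median -0.21). The neutrophil genes S100a8 and S100a9 were not called, at 111 and 148 at 36 h, against 33.2 and 23 at 0 h for S100a8 and 154 and 159 at 36 h, against 66.2 and 47.4 at 0 h for S100a9. The 15 lymphocyte markers summed to 609.8 and 579.7 at 36 h against 685.9 and 674.8 at 0 h. The part of a shift in cell types in the results above was not tested.
Among the 30 called genes of this group, 14 kept the call with any 1 of the 12 arrays removed. The calls lost were 15 without 0 h replicate 1, 16 without 0 h replicate 2, 7 without 36 h replicate 1 and 13 without 36 h replicate 2 (adjusted p up to 0.262).

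Wildtype liver at 36 h was also set against wildtype liver at 24 h, which asks what changed within the regenerating phase. At 24 h itself, 10.2 % of all genes were higher and 15.6 % lower than at 0 h. Against 24 h, 37 genes were higher at 36 h and 4 lower, 0.24 % of all tested. The comparisons with 0 h and with 24 h share the 36 h arrays, so the values are given side by side with no test between them. Apob was the largest rise, with 3594 and 2455 at 36 h, against 620.4 and 357 at 24 h (log2 change 2.62 ± 0.24, adjusted p = 0.00458). It was the only one of the 10 largest rises to stay past the threshold whichever array was left out. Nedd4, a ubiquitin ligase, had 2030.3 and 2139 at 36 h, against 903 and 443 at 24 h (log2 change 1.69 ± 0.24, adjusted p = 0.0265), and Sh3d19 had 171 and 135 at 36 h, against 41.2 and 31.8 at 24 h (log2 change 1.68 ± 0.20, adjusted p = 0.0234). Elovl6, a fatty acid elongase, had 903 and 740.4 at 36 h, against 271 and 261 at 24 h (log2 change 1.56 ± 0.24, adjusted p = 0.0319). For these the 36 h arrays were all above the 24 h arrays, while the 24 h pools lay apart for Apob and Nedd4, replicate 1 the higher.

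Among called members of the lists above, named here after their values were seen, Cpt1a, the gate of mitochondrial fatty acid import, changed by 1.02 against 24 h, the nuclear receptor Rora by 1.21 and the transcription factor Prox1 by 1.04. Necab1, Mia2, Secisbp2l, Tenm3 and Bclaf1 rose by 1.47, 1.33, 1.32, 1.32 and 1.29. Dbp had 125 and 234 at 36 h, against 41.7 and 47.2 at 24 h (log2 change 1.64 ± 0.24, adjusted p = 0.0265), and it was at the same time below its 0 h level. Cry1 had 109.9 and 118 at 36 h, against 240.2 and 193 at 24 h (log2 change -0.83 ± 0.13, adjusted p = 0.0334), lower than at 24 h and higher than at 0 h. Selenbp2 changed by -0.69 against 24 h and Rfxank by -0.96. Meioc was called lower (-0.55) while under background at both times, so its change is uncertain. Without suffixed probe sets Rfxank changed by 0.06. Of the genes called against 0 h, 23 higher and 1 lower were also called in the same direction against 24 h, and 2 (Cry1 and Dbp) in the opposite one.

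The number of calls was unstable. It was 1 higher and 0 lower without either 0 h array of the wildtype, which enter only through the estimate of the spread, and 114 higher and 64 lower without Socs2-null 24 h replicate 1. Without 24 h replicate 2 it was 3 and 2, and without 36 h replicate 2 it was 12 and 3. With the level of the hybridization controls as a covariate no gene was called.

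**Figure D5:**
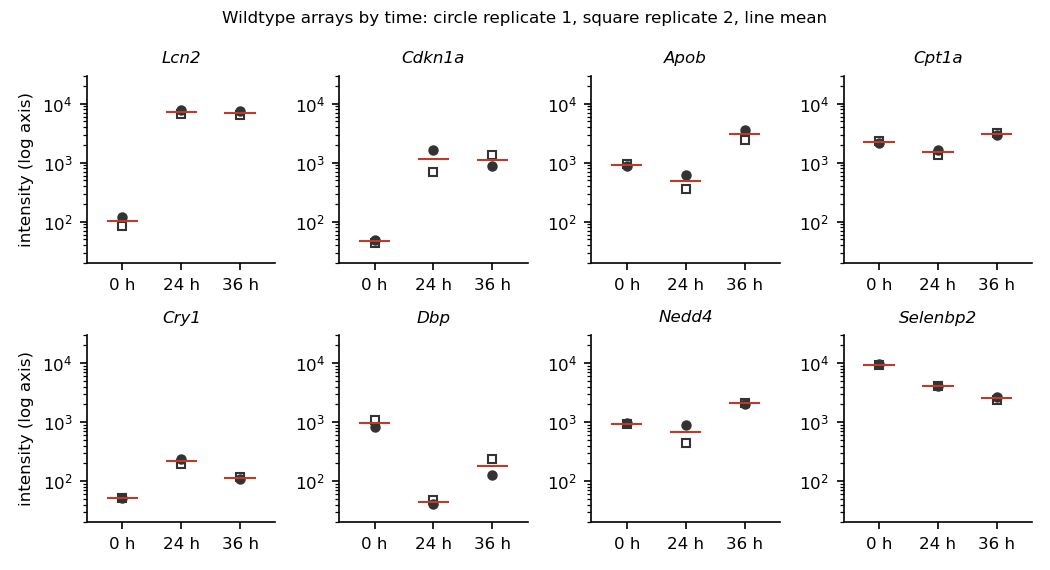
Intensity on the 6 wildtype arrays (log axis) at 0, 24 and 36 h for 8 genes; circles are replicate 1, squares replicate 2 and lines the mean of 2 pools. Lcn2 and Cdkn1a are alike at 24 and 36 h, while Apob, Cpt1a and Nedd4 are lowest at 24 h and Cry1 is highest there.

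The wildtype response at 36 h was compared with that of Socs2-null liver through the interaction of genotype and time. In Socs2-null liver 9.84 % of genes were higher and 10.1 % lower at 36 h than at 0 h. For the difference between the genotypes, of 17097 genes 1 was called (0.00585 %), and 640 had an unadjusted p under 0.05. The deleted gene, Socs2, had 28.7 and 23.2 at 36 h, against 26.4 and 27.6 at 0 h in Socs2-null liver, below every wildtype array. Nudt7, a peroxisomal nudix hydrolase that cleaves coenzyme A, had 4528 and 4989 at 36 h, against 7859 and 7959 at 0 h in wildtype liver, and 1746 and 1994 at 36 h, against 7438 and 8316 at 0 h in Socs2-null liver. The change was -0.73 in wildtype and -2.07 in Socs2-null liver, a difference of 1.33 ± 0.14 (adjusted p = 0.0168). Its adjusted p ran from 0.00701 to 0.286 when single arrays were left out, and it lost the call in 5 of these, among them each of the 2 wildtype 0 h arrays. Without suffixed probe sets, a setting that drops the probe set used here, the difference was 0.51 (limma's adjusted p = 0.999). The other genes described above did not differ between the genotypes past the threshold, which with 2 pools a group does not show that they responded alike.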

How the data were processed

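Liver RNA was hybridized to an Affymetrix mouse array of 45141 probe sets, 10 µg of total RNA from 30 mg of tissue, per the labels' protocols. The deposited values are processed intensities on a linear scale, from 1 upward; how they were background-corrected, summarized and normalized is not stated in the labels. Here log2(intensity + 16) was fitted in limma 3.58.1 (R 4.3.3) as 6 group means over 12 arrays, with a trended, robust variance and Benjamini-Hochberg adjustment over 17097 genes, a gene being its brightest probe set by mean log2. A gene was under background where every array of a group lay below the brightest of 17 tag controls, and its fold is then a lower bound. On data simulated with independent noise for each gene, 66 % of genes changed 1.5-fold and 92 % of those changed 2-fold were called. There, 13 unchanged genes were called too. Pools that differ group-wise, as those at 36 h did, were not simulated, so these shares may not hold for these data. The members and gene lists were chosen with earlier results of these data known. Named genes were the 20 largest called changes in each direction, called list members or list members of smallest p, and the 10 largest for the other comparisons. Replicate numbers did not pair the wildtype 36 h and 0 h arrays (r of replicate differences -0.0683). Between other groups r ran from -0.499 (Socs2-null 24 h and 36 h) to 0.347 (wildtype 24 h and Socs2-null 36 h). The source of these values was not tested. Nothing in the labels says that the pools were processed separately, so p-values measure the spread between pools, which may be partly technical. Promoters came from RefSeq. Figures used matplotlib 3.10.9 (Python 3.11.15).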

Additional observations from a re-analysis of the deposited data

Results flagged for a closer look

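The 36 h response of Nudt7 differed between the genotypes by 1.333 on the log2 scale, wildtype minus Socs2-null, by limma's test of the interaction (adjusted p = 0.0168). It fell to 4528 and 4989 at 36 h against 7859 and 7959 at 0 h in wildtype liver, and to 1746 and 1994 at 36 h against 7438 and 8316 at 0 h in Socs2-null liver. The call was lost with median centring (limma's adjusted p = 0.0576), with the mean of its probe sets (0.324) and without suffixed probe sets (0.999).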

How the results depend on the processing

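Over single arrays left out, genes higher at 36 h than at 0 h numbered 197 to 1145 and lower 384 to 1918. Against 24 h they numbered 1 to 115 and 0 to 65, and in the interaction 0 to 12 and 0 to 1. Lower genes at 36 h against 0 h numbered 1045 with median centring and 1070 with the dimmest 50 % of genes dropped. The covariate of hybridization controls, chosen after seeing the data, gave 223 higher and 309 lower. With the replicate number as a block, 881 genes were higher and 1488 lower, a change under 1.5 times. Against 24 h, where 37 were higher and 4 lower, the block gave 22 and 2, only wildtype arrays 100 and 55, and the covariate 0 and 0. Higher genes there were 21 with median centring and 9 with only the arrays compared. Lower genes there were 10 with quantile normalization, 1 without suffixed probe sets and 8 with array weights. The 1 interaction call became 0 with median centring, the mean of probe sets, no suffixed probe sets or plain eBayes, and 2 with only the arrays compared. The median change of all genes, -0.06, was -0.0217 with quantile normalization, 0.0119 with median centring, -0.0364 with a pseudocount of 64 and -0.0136 with the covariate. The covariate turned the sign of Cdt1 (-0.00816), Chek1 (-0.15), Dnmt1 (-0.0428), Gins2 (-0.20), Mcm2 (-0.33), Phlda3 (-0.0644), Prim1 (-0.52), Rrm1 (-0.19), Spc25 (-0.17), C4bp (-0.0462), Glud1 (-0.0626), Gstm2 (-0.24), Gstm3 (-0.18), Mmp9 (0.11) and Igfbp2 (0.0591). Their standard errors there ran from 0.208 (Phlda3) to 0.669 (Gstm3). None of these genes was called with the covariate, so that fit settles no direction for them. Among named genes, dropping suffixed probe sets turned Angptl4 (-0.0531), Fabp4 (-0.75), Arntl (-0.10) and, against 24 h, Rfxank (0.0633), and quantile normalization turned Alb (0.0294). Over all genes called against 0 h, 64 took the other sign without suffixed probe sets and 18 with the mean of probe sets. The cause of these shifts was not tested. With 2 pools a group, calls near the threshold rest on single arrays, and genes near background have bounds only.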

Other observations

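Of 19 genes of heme synthesis and iron 2 rose and 2 fell at 36 h, 21.1 % against 15.2 % of all genes, with a median change of -0.03. Tfrc, the transferrin receptor, had 964.4 and 931.5 at 36 h, against 424.7 and 409.0 at 0 h (limma's adjusted p = 0.0174), and Cpox, an enzyme of heme synthesis, had 738.4 and 468.5 at 36 h, against 246.1 and 259.5 at 0 h (limma's adjusted p = 0.0268). The arrays of the groups did not overlap for either, a separation that 24.3 % of all genes showed upward. Alas2, the erythroid first enzyme of heme synthesis, fell by 1.43 on the log2 scale, and Bmp6, a signal of iron load, by 0.38. Nr3c1, the glucocorticoid receptor, had 323.9 and 363.1 at 36 h, against 579.3 and 546.2 at 0 h (limma's adjusted p = 0.0176). Among zinc transporters, Slc39a4 fell by 0.68 on the log2 scale and Slc30a10 changed by 0.79. Tfrc, Bmp6 and Nr3c1 lost the call without any 1 of the 4 arrays compared, and Cpox, Slc30a10 and Slc39a4 without either 0 h array or 36 h replicate 1, Slc39a4 also without 4 arrays of other groups. The change of Alas2 stayed past the threshold whichever of the 12 arrays was left out.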
